A study of Mus musculus with 4 samples.

Results

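Deletions flanked by microhomology were collected from amplicons sequenced across 2 Cas9 cut sites in mouse embryonic stem cells (mESCs). A microhomology is a short stretch of identical bases present at both ends of a deletion, of which the repaired allele keeps 1 copy. A deletion was chosen when it was a single gap of at least 3 bp, had no mismatch within 10 bp, touched the predicted cut in at least 1 equivalent placement, and had at least 2 bp of microhomology. The choice used sequence and position and no abundance. It gave 225 distinct deletions, 130 at Site 7 and 95 at Site 9, of 1581 distinct simple deletions of at least 3 bp that touched a cut. The other 1356 had 1 bp of microhomology or none.

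Both groups were E14 mESCs of the 129/Ola strain, a male line grown without feeders. They were lipofected with a pX plasmid carrying Cas9 nuclease and 1 sgRNA, against either Site 7 on chromosome 16 or Site 9 on chromosome 6, and selected with puromycin or for GFP. DNA came from pools of cells harvested 3 to 7 days after transfection, so the values are averages over mixed alleles and not over clones. Each site had 2 replicate libraries made with 25 cycles of target PCR and 6 of indexing, and cells without a guide were not analysed here. No label says that the replicates were separate transfections, so the tests measure only the spread between these libraries, which may be technical.

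Microhomology-mediated end joining begins when the ends of a double-strand break are resected, which exposes single strands. Short repeats on the 2 sides of the break can then anneal, the unpaired flaps are trimmed, and gaps are filled, a step in which DNA polymerase theta is known to act. The product keeps 1 repeat copy and loses the other together with everything between them. Non-homologous end joining, in contrast, rejoins ends protected by the Ku70/Ku80 heterodimer with little or no resection.

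Site 7 lies in an intron of Clic6, which encodes a member of the chloride intracellular channel family, although the sample labels name the neighbouring gene Runx1. Its amplicon was chr16:92520087-92520332 (mm9, 246 bp) and contained no annotated exon. The cut was between bases 92520184 and 92520185. Site 9 lies in Prickle2, which encodes a planar cell polarity protein and is transcribed from the minus strand. Its amplicon was chr6:92370046-92370253 (208 bp), with the cut between 92370121 and 92370122, in an intron beside a coding exon that spans 92370137 to 92370340. The protospacers are shown 5′ to 3′ on their own strand (minus at Site 7, 92520182 to 92520201, and plus at Site 9, 92370105 to 92370124), with the PAM in capitals, because the cut they set decides which repeats can be joined.
Site 7 guide: gtccaactgaaaacgcccttAGG
Site 9 guide: taaaatattcacacgtgggcAGG

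The plus strand around each cut holds most of the repeats described here. The 80 bp windows chr16:92520145-92520224 and chr6:92370082-92370161 are given with the 3 bases on each side of the cut in capitals.
Site 7 cut: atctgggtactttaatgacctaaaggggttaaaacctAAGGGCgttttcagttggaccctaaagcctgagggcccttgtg
Site 9 cut: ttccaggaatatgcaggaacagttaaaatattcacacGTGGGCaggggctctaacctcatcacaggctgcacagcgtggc

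The following reference stretches carry the most read deletions and the contrasts between used and unused repeats. They are plus strand, mm9, with 10 bp of flank and both repeat copies in capitals. Repair keeps 1 copy and removes the other and the sequence between them. The first 6 are from Site 7, starting at 92520162, 92520162, 92520153, 92520151, 92520169 and 92520157.
16 bp GTT: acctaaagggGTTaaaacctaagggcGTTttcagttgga
23 bp GTT: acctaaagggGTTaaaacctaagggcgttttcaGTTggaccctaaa
39 bp CCTAAAG: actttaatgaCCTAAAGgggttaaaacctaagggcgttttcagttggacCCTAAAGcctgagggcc
38 bp GACC: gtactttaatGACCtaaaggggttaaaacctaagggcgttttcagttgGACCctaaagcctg
23 bp CCTAA: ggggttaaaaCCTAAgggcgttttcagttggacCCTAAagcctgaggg
15 bp AAGGG: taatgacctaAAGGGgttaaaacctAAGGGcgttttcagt
At Site 9 the stretches start at 92370106, 92370104, 92370084, 92370075, 92370056, 92370103, 92370111, 92370112 and 92370083. The last 2, 24 bp GGC and 56 bp TGCA, had no read.
8 bp CA: aaaatattcaCAcgtgggCAggggctctaa
10 bp CA: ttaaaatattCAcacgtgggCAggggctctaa
29 bp GCAGG: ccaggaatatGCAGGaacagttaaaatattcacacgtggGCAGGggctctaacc
39 bp CAGG: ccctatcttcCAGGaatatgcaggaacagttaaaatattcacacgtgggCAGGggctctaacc
59 bp AGG: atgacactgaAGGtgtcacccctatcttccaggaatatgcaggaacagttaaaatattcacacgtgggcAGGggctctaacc
28 bp TCACA: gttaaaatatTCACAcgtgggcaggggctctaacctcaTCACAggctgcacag
6 bp GGGC: attcacacgtGGGCagGGGCtctaacctca
24 bp GGC: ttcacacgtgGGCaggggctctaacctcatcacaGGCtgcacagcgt
56 bp TGCA: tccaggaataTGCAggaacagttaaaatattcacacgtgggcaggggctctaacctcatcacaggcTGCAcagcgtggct
The most read deletions of 3 to 75 bp across each cut left the following sequences, with the retained copy in capitals.
16 bp GTT product: acctaaagggGTTttcagttgga
8 bp CA product: aaaatattcaCAggggctctaa

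Deletions with microhomology took similar shares of aligned reads at the 2 sites. The libraries held 397547 and 411023 aligned reads at Site 7 and 447620 and 380601 at Site 9. The chosen deletions took 14.9% of aligned reads in Site 7 replicate 1 (95% Wilson interval 14.82 to 15.04) and 18.2% (18.1 to 18.3) in replicate 2. At Site 9 they took 16.6% (16.5 to 16.7) and 18.7% (18.6 to 18.9). Site 7 averaged 16.6% ± 2.32 and Site 9 17.7% ± 1.48 (SD, n = 2), and the libraries of the sites overlapped. The difference of 1.11 percentage points was smaller than the SD between replicates (exact two-sided permutation test, p = 0.667), and without Site 7 replicate 1 it became -0.538. Leaving out Site 7 replicate 2, Site 9 replicate 1 or Site 9 replicate 2 gave 2.75, 2.15 and 0.0619 points. Set against the reads that the authors' program called modified, the shares were 15.5% and 18.9% at Site 7 and 25.9% and 31.1% at Site 9. The difference was then 11.3 points (exact permutation test, p = 0.333). In both Site 9 libraries a smaller part of aligned reads was called modified than in either Site 7 library. A share of aligned reads therefore also depends on how many reads were edited. Because the amplicons carried no molecular identifiers, several reads can stem from 1 molecule, so the intervals, and the limit that a count of 0 allows (3 reads, or 0.00067% to 0.000788% of a library), cover counting error only.

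Among simple deletions of at least 3 bp that reached the cut, microhomology was more common at Site 9. It accounted for 30.4% and 35.1% of such reads at Site 7 and for 47.7% and 53.7% at Site 9. The 2 sites did not overlap, with means of 32.8% ± 3.29 and 50.7% ± 4.22 (SD, n = 2) and a difference of 17.9 points (exact two-sided permutation test, p = 0.333, or 0.4 after Benjamini-Hochberg adjustment over 6 comparisons). With 2 libraries against 2, 0.333 is the smallest p that the test can give. Requiring 3 bp of microhomology turned the direction, but the libraries of the sites then overlapped. Site 7 had 21.5% and 25.1%, Site 9 had 20.5% and 24.2%, and the difference was -0.970 points (exact permutation test, p = 0.667). Counting each distinct deletion once reduced the difference to 4.41 points.

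The repeats themselves differed between sites in length, base composition and position. Over reads, mean microhomology length was 3.15 and 3.28 bp in the Site 7 libraries, against 2.79 and 2.80 bp for Site 9. Site 7 reads most often had 3 bp (49.5% and 48.8% of the chosen reads), whereas Site 9 reads most often had 2 bp (57.1% and 54.8%). Microhomologies of at least 5 bp, up to 7 bp at Site 7 and 5 bp at Site 9, took similar shares, 12.0% and 13.99% against 12.4% and 11.8%. GC bases formed 50.2% and 47.2% of microhomology bases at Site 7 and 62.7% and 59.4% at Site 9. Median deletion size over reads was 23 bp in each Site 7 library and 18 and 20 bp in those of Site 9, within overall ranges of 11 to 75 bp and 4 to 72 bp. The PAM side of the cut contributed 58.2% and 56.9% of deleted bases at Site 7 and 48.6% and 50.2% at Site 9. Mean length, GC content, median size and PAM side did not overlap between sites, and each gave the smallest p possible (exact permutation test, p = 0.333). With 3 bp or more the length and size differences turned, to 0.0947 and 6 bp, while GC content differed by 21.2 points and the PAM side by -3.17. In length the libraries of the sites then overlapped (exact permutation test, p = 0.667). With each distinct deletion counted once, the length and PAM-side differences turned, to 0.0816 bp and 1.19 points (exact permutation test, p = 0.333 and 0.667). Without the most read deletion of each site, an alternative added after the data were seen, the size and PAM-side differences changed sign, to 1.5 bp and 0.564 points, and the length difference was -0.216 bp. In size and PAM side the libraries of the sites overlapped there.

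The most read deletion at Site 7 joined 2 GTT repeats 16 bp apart. This deletion, chr16:92520172-92520187, took 3.76% (3.70 to 3.82) and 4.34% (4.276 to 4.4) of aligned reads, and had the highest mean share of all deletions of 3 to 75 bp across this cut. The same left copy of GTT also joined a more distant GTT, for a 23 bp deletion at 1.44% and 2.11%. The nearer partner was thus the more read in both libraries.
The longest microhomology, the 7 bp CCTAAAG, gave a 39 bp deletion at 0.792% and 1.80%. Its right copy also joined a nearer, 5 bp match, CCTAA, for a 23 bp deletion at 0.882% and 0.665%. The order of these 2 partners turned between the replicates: the nearer and shorter match led in replicate 1, and the longer and more distant match led in replicate 2. The 38 bp deletion at GACC, whose copies overlap those of CCTAAAG by some bases, took 0.630% and 1.06%.
The other deletions among the 10 most read joined 2 or 3 bp repeats, TT at 17 bp, GGG at 14 bp, GG at 16 bp, AG at 11 bp and ACC at 22 bp. Each of these took between 0.464% and 0.751% of aligned reads in each library. The first 4 bp repeat to follow them, GGCG at 46 bp, took 0.517% in replicate 1 and 0.227% in replicate 2.

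At Site 9 the leading deletion was shorter and had less microhomology. It removed chr6:92370116-92370123, 8 bp at a CA repeat, in 4.61% (4.55 to 4.67) and 4.41% (4.35 to 4.48) of aligned reads. Its mean share was the highest of all deletions of 3 to 75 bp across this cut. Its right copy begins a CAGG stretch beside the cut that was joined to a series of left partners at growing distances. The used partners (at least 10 reads in each library) beginning with the same C were CA at 10 bp (0.968% and 1.38%), CAG at 23 bp (0.436% and 0.354%) and CAGG at 39 bp (0.566% and 0.611%). The 4 used deletions that share this right copy, the leading one included, took 6.58% and 6.76% of aligned reads in sum. Shifted by 1 base to either side, the same stretch also joined GCAGG at 29 bp (1.39% and 1.15%) and AGG at 59 bp (0.565% and 0.611%). Use along this series did not simply fall with distance: the 5 bp match at 29 bp was read more often than the 3 bp match at 23 bp in both libraries, and the deletions of 39 and 59 bp had counts within 1 read of each other in each library although they are separate alleles.
A TCACA repeat on the other side formed a second series. Its copy left of the cut joined TC at 18 bp (0.466% and 1.02%), TCA at 25 bp (0.260% and 0.595%) and the full TCACA at 28 bp (0.501% and 0.884%). All 3 were higher in replicate 2, by 2.19, 2.29 and 1.76 times. The remaining deletions among the 10 most read were GGGC at 6 bp (0.900% and 0.807%), GGG at 5 bp (0.603% and 0.565%) and AC at 18 bp (0.545% and 0.482%).

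**Figure D1:**
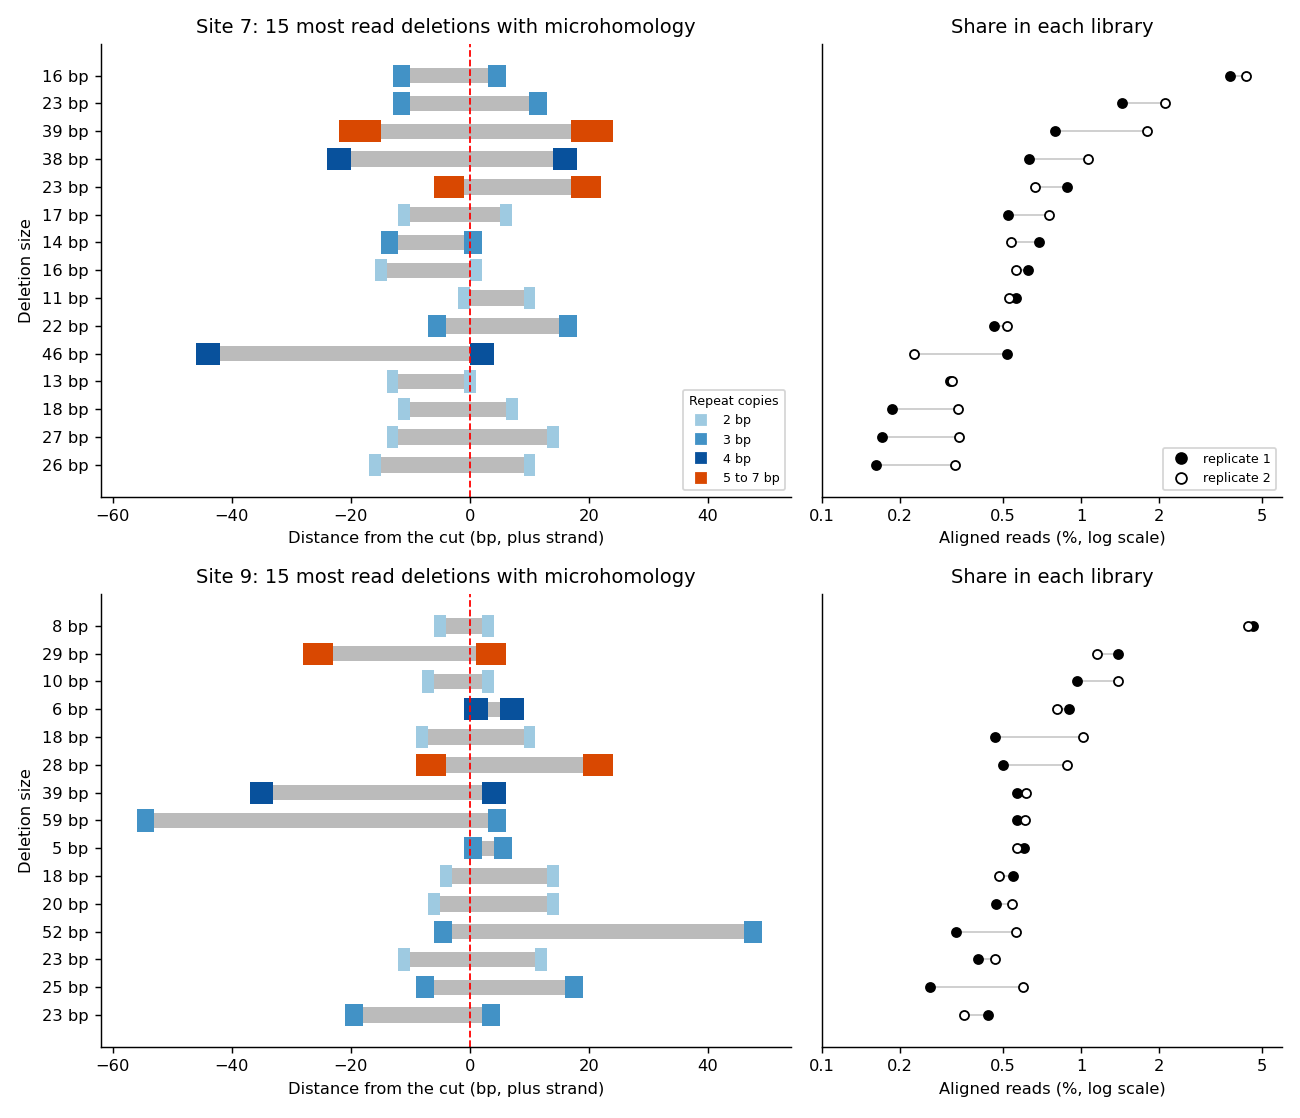
Left, the 15 most read microhomology deletions of each site as grey bars with coloured repeat copies, by distance from the cut (bp, plus strand; dashed line, cut); right, their share of aligned reads (%, log scale) in replicate 1 (filled) and replicate 2 (open). The 16 bp GTT deletion (3.76% and 4.34%) and the 8 bp CA deletion (4.61% and 4.41%) lead, and repeat copies of most deletions lie on opposite sides of the cut.

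Reads were concentrated in few deletions. The most read deletion held 25.2% and 23.8% of the chosen reads at Site 7 and 27.7% and 23.6% at Site 9. The 10 deletions with the highest mean share at each site held 69.4% and 70.7% at Site 7, and 66.8% and 63.7% at Site 9. Of the distinct chosen deletions, 91 of 130 and 71 of 95 were found in both libraries of their site. The background was every distinct cut-touching simple deletion of at least 3 bp, chosen ones included. For Site 7 this was 1042 deletions, of which replicate 1 held 470 and replicate 2 held 1000. For Site 9 it was 539, of which replicate 1 held 437 and replicate 2 held 367. The number shared by both libraries was not counted, but it cannot exceed 470 of 1042 or 367 of 539. Both limits are smaller parts than those of the chosen deletions.

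To compare used with unused repeats, every pair of identical stretches of at least 2 bp whose joining would remove 3 to 75 bp and touch the cut was listed. There were 137 such repeat pairs at Site 7 and 130 at Site 9, and all 225 deletions matched 1 of them. A pair was called used with at least 10 reads in each library of its site and unused with no read in either. At Site 7, 85 pairs (62.0%) were used, 45 had fewer reads and 7 were unused, where 15.8% of all 2213 possible deletions of 3 to 75 bp across the cut passed the same call. At Site 9, 63 pairs (48.5%) were used, 32 had fewer reads and 35 were unused, against 10.3% of 2203 possible deletions. These backgrounds include the pairs themselves. The longest chosen deletion was 72 bp in both Site 9 libraries, so longer pairs there may not have been readable. The counts of the 2 sites are also not on equal terms, since a smaller part of aligned reads was called modified at Site 9. Raising the call to 100 reads in each library left 45 pairs at Site 7 (32.8%, background 6.96%) and 43 at Site 9 (33.1%, background 5.36%). Counting a pair with 1 read in either library gave 130 (94.9%, background 47.1%) and 95 (73.1%, background 24.5%). Used pairs carried 98.7% of the chosen reads at each site. With the call of 10 reads made in 1 library alone, 90 pairs passed in replicate 1 of Site 7 and 118 in replicate 2. At Site 9, 80 and 70 passed. At Site 7 the call was thus limited more by replicate 1, which held 470 distinct simple deletions against 1000 in replicate 2. Backgrounds for 1 library alone were not computed. Pairs below the call could still be abundant in 1 library: the 29 bp TG pair at Site 9 had 271 reads in replicate 1 and none in replicate 2.

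Over all sizes of 3 to 75 bp together, the share of possible deletions that was used was higher in each longer class of microhomology. This held on both sides of the 2 bp threshold. At Site 7 it was 10.3% of 1654 possible deletions with no microhomology, 22.0% of 422 with 1 bp, 53.1% of 96 with 2 bp and 78.8% of 33 with 3 bp, and all 8 pairs of 4 bp or more were used. At Site 9 it was 5.88% of 1685, 17.01% of 388, 43.2% of 88, 53.8% of 26 and 61.5% of 13 with 4 bp, and all 3 pairs of 5 bp were used. Within size ranges not every step was upward. At 20 to 39 bp of Site 9, use was 75% with 2 bp and with 3 bp. At 3 to 19 bp, use was 100% from 1 bp up at Site 7 and from 2 bp up at Site 9. Just outside the threshold, deletions with 1 bp took 13.2% and 12.2% of aligned reads at Site 7 and 11.8% and 10.6% at Site 9. Just inside, deletions with 2 bp took 4.37% and 5.18%, and 9.50% and 10.3%. Per possible deletion, the mean share with 2 bp was 0.0456% and 0.0540% at Site 7, against 0.0312% and 0.0289% with 1 bp. At Site 9 it was 0.108% and 0.117% with 2 bp, against 0.0305% and 0.0273% with 1 bp. Among deletions of 3 to 19 bp the order at Site 7 differed between libraries, with 0.342% and 0.375% for 2 bp against 0.408% and 0.356% for 1 bp.

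**Figure D2:**
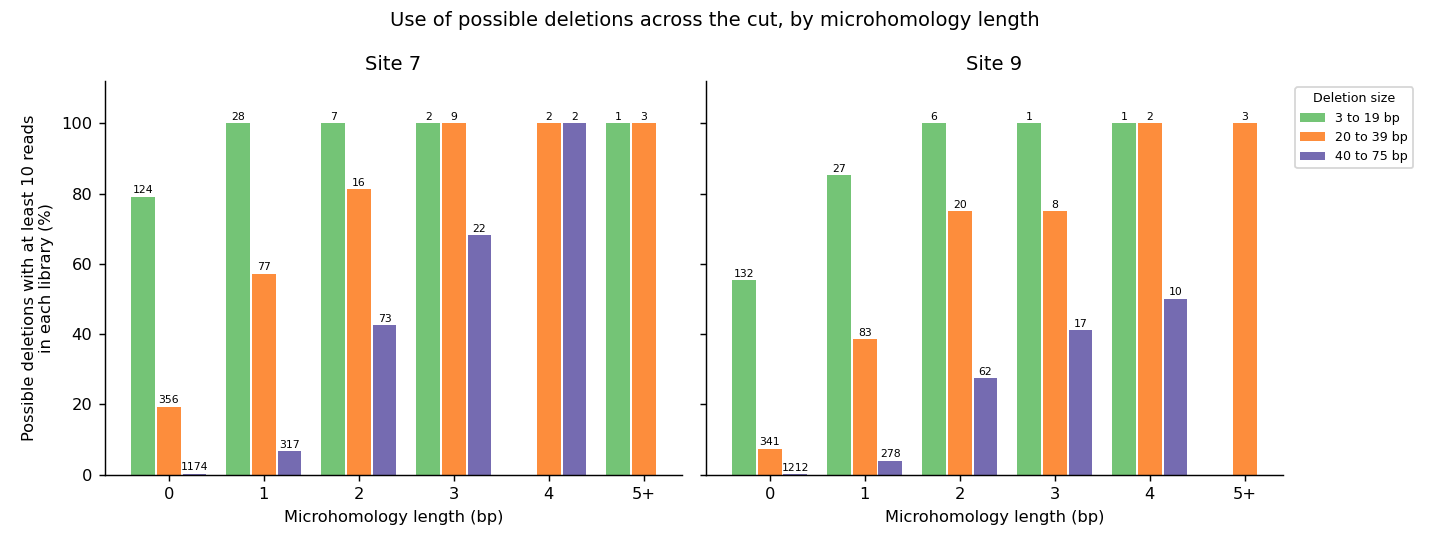
Bars give the percent of possible deletions across the cut that had at least 10 reads in each library, by microhomology length (bp) and deletion size, with the number of possible deletions above each bar; an absent bar with no number marks a class without members. Among deletions of 40 to 75 bp, use at Site 7 was 0.341% without microhomology, 42.5% with 2 bp and 68.2% with 3 bp.

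Unused pairs were larger deletions than used pairs. Of the pairs that would delete 3 to 19 bp, all 10 at Site 7 and all 8 at Site 9 were used, but here the background was also high, at 84% and 62.3%. Of those deleting 20 to 39 bp, 27 of 30 and 26 of 33 were used (background 30.2% and 18.2%). Of those deleting 40 to 75 bp, 48 of 97 and 29 of 89 were used (background 4.6% and 2.6%). At Site 9 this range includes pairs longer than 72 bp, the longest chosen deletion there. Used pairs had a median size of 44 bp at Site 7 and 38 bp at Site 9, against 66 and 63 bp for unused pairs. Their mean microhomology was 2.56 and 2.62 bp, against 2.14 and 2.34 bp. GC content of the repeats showed no common direction, with 51.8% in used and 66.7% in unused pairs at Site 7, which had only 7 of the latter, and 60.6% against 54.9% at Site 9.

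Across all repeat pairs of a site, Spearman's rho between size and share of reads was -0.612 and -0.660 in the 137 pairs of Site 7 and -0.584 and -0.541 in the 130 pairs of Site 9. The rho for microhomology length was 0.311 and 0.438, and 0.220 and 0.289. A pattern score that weighs both (GC bases count double, and the weight falls exponentially with size) had a rho of 0.645 and 0.706, and 0.621 and 0.601. These are descriptions, since pairs share a cut, bases and a library. The score ranked some pairs far from their measured use. The 15 bp AAGGG pair had the highest score at Site 7, 378, but was 76th in reads, with 0.00604% and 0.0219%. The cut splits its right copy, with 2 of the 5 bases beyond the cut. A split copy also occurred in well-read pairs. GGG at 14 bp of Site 7 also had 2 bases of its right copy beyond the cut and was 7th in reads. GGGC at 6 bp of Site 9 had its left copy split, with 1 of 4 bases left of the cut, and was 4th in reads.

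**Figure D3:**
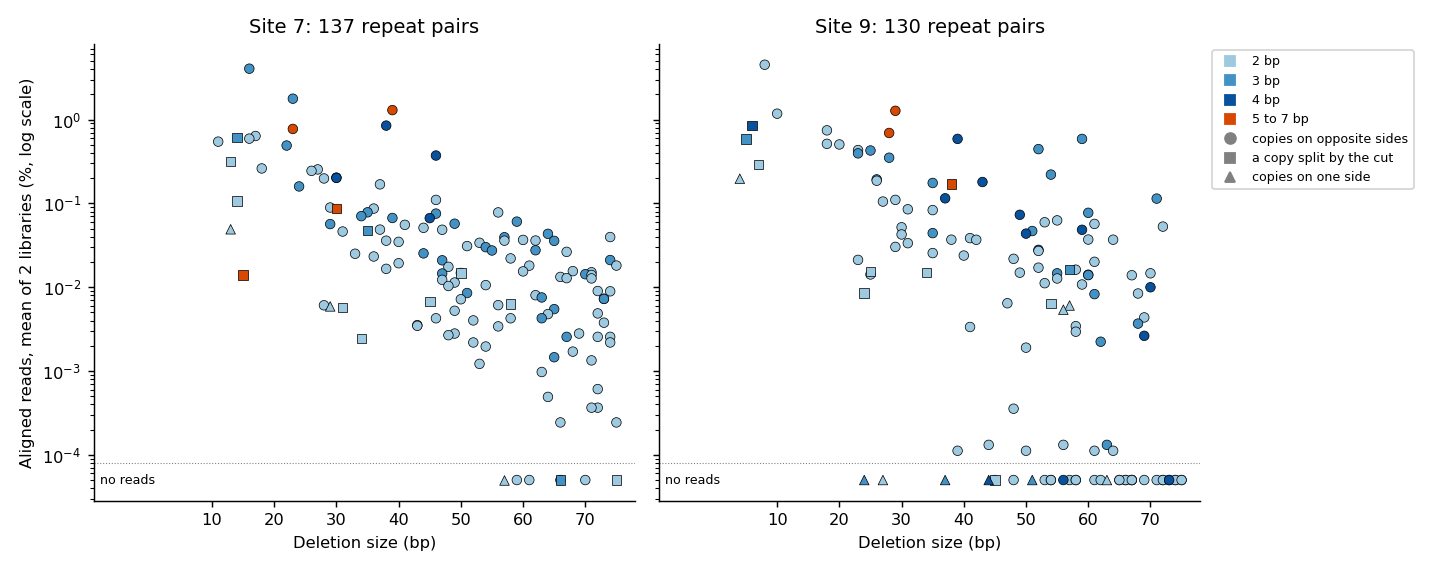
Mean share of aligned reads over the 2 libraries (%, log scale) of each repeat pair against deletion size (bp); colour gives microhomology length and shape the position of the copies relative to the cut. Points under the dotted line had no reads: 7 at Site 7, all of 57 bp or more, and 35 at Site 9, from 24 bp up.

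At equal size, the deletion with microhomology was usually the one most read. At Site 7 a repeat pair gave the most read deletion at 51 of the 58 sizes for which a pair existed, and at Site 9 at 36 of 53. Pairs formed on average 7.73% and 9.01% of the possible placements of such a size and held, in the median size, 63.0% and 67.3% of its reads. Where 1 copy had 2 used partners of the same microhomology length, whatever their distance, the shorter deletion was the more read in both libraries in 39 of 67 comparisons at Site 7 and 27 of 51 at Site 9. The longer was the more read in 9 and 16. These comparisons share copies and are not independent.

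The position of the 2 copies relative to the cut was examined after the data had been seen. Copies lay wholly on opposite sides of the cut in 121 of 137 pairs at Site 7 and 111 of 130 at Site 9, and these pairs held 90.5% and 93.8% of the chosen reads at Site 7 and 86.1% and 89.2% at Site 9. In the rest the cut split a copy or both copies lay on 1 side. At Site 9, 24 of 26 pairs of 20 to 39 bp with copies on opposite sides were used, against 2 of 4 with a split copy and 0 of 3 with both copies on 1 side (background 18.2%). Those 3, GGC at 24 bp, TG at 27 bp and GGC at 37 bp, were the shortest unused pairs of the site and had no read in either library, which allows at most 0.00067% and 0.000788% of reads. Over all sizes, 1 of 9 pairs with both copies on 1 side was used at Site 9, GG at 4 bp with 0.218% and 0.176%. Of the other 8, 6 were unread, among them GGCA at 44 bp, and TG at 57 bp and GG at 56 bp had reads in replicate 2 only (46 and 41). At Site 7, 2 of the 3 such pairs were used, GG at 13 bp and GG at 29 bp. These numbers are small and the difference between the sites was not tested.
The other used pairs of 4 bp or more were less read than those among the top 10 and GGCG. Beside the AAGGG pair, Site 7 had TAAA at 30 bp (0.197% and 0.206%), AGGGC at 30 bp (0.114% and 0.0599%) and AGGG at 45 bp (0.0267% and 0.107%). At Site 9 they were ACAG at 43 and 52 bp, CGTGG at 38 bp, CACA at 37 bp, CAGG at 49 and 59 bp and TTCA at 50 bp, with 0.00827% to 0.176% in replicate 1 and 0.0276% to 0.183% in replicate 2.
Not every pair with opposite copies was used: 75 of 121 were at Site 7 and 57 of 111 at Site 9 (backgrounds 15.8% and 10.3%). The 4 bp repeats TGCA at 56 bp and CACA at 73 bp of Site 9 faced each other across the cut and had no read by alignment. The CACA pair is longer than 72 bp, the longest chosen deletion in both Site 9 libraries. Whether the alignment could hold longer deletions there was not tested. Of the 13 pairs of 4 bp at Site 9, 2 more fell short of the call: TCAC at 70 bp had 0 and 76 reads and CAGG at 69 bp had 20 and 3. At Site 7 the shortest unused pairs were GG at 57 bp, AA at 59 bp and TG at 61 bp. The junction of each unused pair was searched as a string in all aligned reads, because an aligner can place an allele in other ways. Reads that did not align could not be searched. All 7 junctions at Site 7 and 33 of 35 at Site 9 were absent. The other 2 were AT at 48 bp, with 71 reads, and CACA at 73 bp, with 1.

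The level of single pairs varied between replicates. The fold of replicate 2 over replicate 1 had a median of 1.14 (range 0.0654 to 6.65) over 85 used pairs of Site 7 and of 1.24 (0.326 to 16.7) over 63 of Site 9. It was within 2-fold in 53 and 44 pairs. Pearson's r of the log shares was 0.872 and 0.894, a description over pairs that share libraries. Among used pairs of Site 9 the widest gap was the 49 bp CAGG pair, with 0.00827% (37 reads) and 0.138% (525 reads). Among those of Site 7 it was the 74 bp GC pair, with 0.0745% and 0.00487%. The call of used limits such gaps, and pairs below it differed more, such as CTA at 55 bp of Site 9 with 130 and 1 reads and CC at 38 bp of Site 7 with 2 and 134. Replicate 2 was the higher in 50 of 85 used pairs at Site 7 and 41 of 63 at Site 9, beside 133 of 264 and 93 of 165 deletions with under 2 bp of microhomology that passed the same call. Whether cell sampling, PCR or repair lay behind such shifts was not tested.

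**Figure D4:**
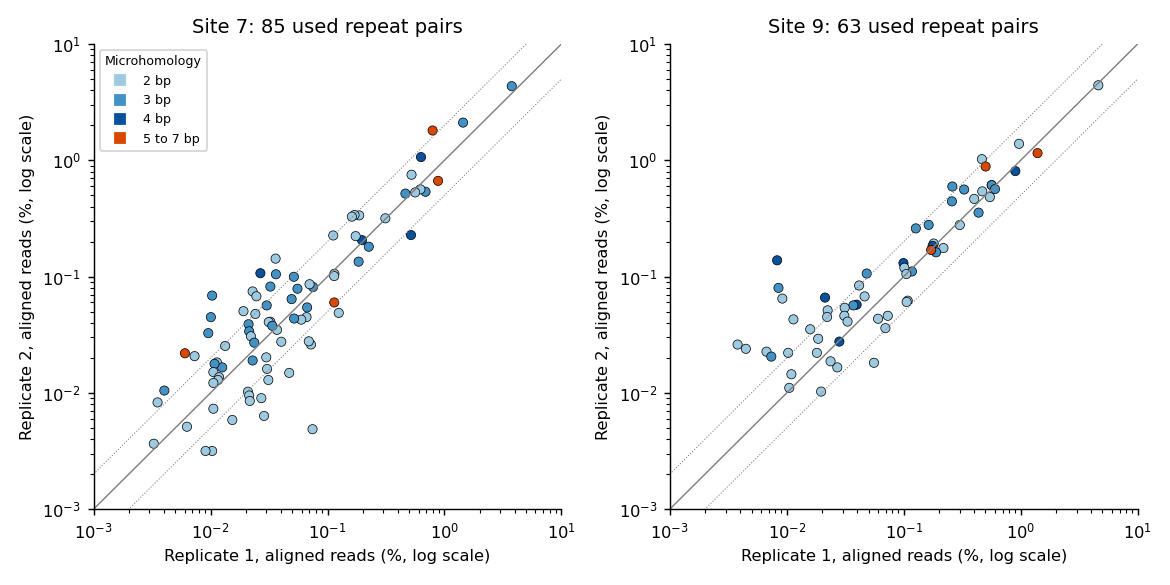
Share of aligned reads (%, both axes log scale) in replicate 1 and replicate 2 for each used repeat pair, coloured by microhomology length; the solid line marks equal shares and the dotted lines a 2-fold change. Within 2-fold lie 53 of 85 pairs at Site 7 and 44 of 63 at Site 9, with the 49 bp CAGG pair (0.00827% and 0.138%) farthest out at Site 9.

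The Prickle2 exon next to the Site 9 cut was reached by part of these deletions. Its lower edge carries the splice donor of the minus-strand gene. Microhomology deletions that removed exon bases in every placement made up 16.4% and 22.4% of the chosen reads (41 of 85 and 40 of 81 distinct deletions). Of the cut-touching simple deletions with under 2 bp of microhomology, 6.51% and 9.32% of reads did so (105 of 352 and 83 of 286 distinct deletions). The classes also differed in size. Of all cut-touching simple deletion reads, those with under 2 bp held 41.5% and 35.4% at 3 to 19 bp. At 20 to 39 bp they held 8.87% and 8.62%. The chosen deletions held 24.7% and 26.2% at 3 to 19 bp, and 16.6% and 19.1% at 20 to 39 bp. Whether the contrast goes beyond size was not tested. The TCACA deletion of 28 bp was the most read of those that entered the exon. The deletions of 8 bp at CA, 29 bp at GCAGG, 39 bp at CAGG, 59 bp at AGG and 6 bp at GGGC did not reach it. The CAGG deletions of 49 and 59 bp did.

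Some chosen reads were not counted as edited by the authors' program. It called 7.36% and 5.08% of the chosen reads at Site 7 unmodified, and 0.297% and 0.119% at Site 9. Restricting the comparison to reads called modified left 80 used pairs at Site 7 and 62 at Site 9 and raised the difference in share of aligned reads to 2.08 points.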

How the data were processed

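Amplicons of genomic DNA from 4 libraries were analysed, and untreated cells were not. The authors trimmed reads (Trim Galore 0.3.1, per the submitters' processing notes) and ran CRISPResso, whose settings are not given in the sources used here. CRISPResso merged identical aligned reads into alleles, and the count deposited with an allele is the unnormalised tally of those reads. The authors' table also gives it as a percent of the library's aligned reads, which served here as a check on the counts. Libraries held 380601 to 447620 aligned reads. No columns of other samples were present.

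Alleles were parsed from the deposited alignments with Python 3.11.15, pandas 2.3.3, NumPy 2.4.6 and SciPy 1.17.1 (figures, matplotlib 3.10.9). Deletions were moved to their leftmost placement, and microhomology was counted over at most 10 bp on the longer side. The parser was tested on simulated data. Amplicons and guides were placed by exact search on mm9 (NCBIM37, GENCODE M1), with the cut 3 bp from the PAM. The PAM-side share used the mean of the leftmost and rightmost placements. Repeat pairs were kept where the reads covered the deletion and 10 bp beyond it. The pattern score was 100 × exp(-size/20) × (AT bases + 2 × GC bases).

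Sites were compared over libraries by the exact two-sided permutation test (threshold 0.05). Named deletions were the 10 most read of each site, the most read of each microhomology length, all pairs of 4 bp or more, the 3 shortest unused pairs, and pairs sharing a copy with these. Pairs named outside this rule (the widest replicate gaps, the 29 bp TG, 38 bp CC, 48 bp AT and 55 bp CTA pairs and the pairs on 1 side of the cut) were chosen after their values were seen. Members and lists were chosen with earlier results of these data known. Alternatives covered the minimum microhomology, size, reads, mismatch filter, caller's call, denominator, counting unit, cut contact, call of used, pairing and each library left out. Crossed pairing, the most read deletion left out, no margin, the junction search and the position of copies were added after the data were seen.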

Additional observations from a re-analysis of the deposited data

How the results depend on the processing

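Differences are Site 9 minus Site 7. With a microhomology of 3 bp or more, the share of aligned reads turned to -4.00 points, the share of cut-touching simple deletions to -0.970 points, mean microhomology length to 0.0947 bp and median size to 6 bp, and the used pairs numbered 34 at Site 7 and 25 at Site 9. With each distinct deletion counted once per library, mean length turned to 0.0816 bp and the PAM-side share to 1.19 points, and no share of aligned reads can be given. Without the most read deletion of each site, median size turned to 1.5 bp and the PAM-side share to 0.564 points. Libraries of the sites overlapped for several of the turned differences, as given above. With 1 read in either library, 130 and 95 pairs counted as used, and with 100 reads in each library, 45 at Site 7. Leaving out each library in turn, the difference in share of aligned reads ran from -0.538 (without Site 7 replicate 1) to 2.75 points, in the share of simple deletions from 14.9 to 20.9 points, in mean length from -0.489 to -0.353 bp, in median size from -5 to -3 bp, in GC content from 10.7 to 14.1 points and in the PAM side from -8.97 to -7.35 points. The causes were not tested beyond what each setting removes. Beside the 9 reversed and 5 moved values given here, 98 alternative values kept their direction and side of the threshold, or stayed within 1.5 times the count. Some of these still moved by more than 1.5 times. With 3 bp or more, GC content differed by 21.2 and the PAM side by -3.17 points, and without the most read deletions mean length differed by -0.216 bp and the share of aligned reads by 0.642 points. With each distinct deletion counted once, the share of simple deletions differed by 4.41 points and median size by -2 bp. Against modified reads the share differed by 11.3 points, and in reads called modified the share of aligned reads differed by 2.08 points.

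Replicate numbers are shared between the sites by label only. Over 4 microhomology length classes, the deviations of same-numbered libraries had a correlation of -0.18. With 2 libraries per site, crossing the numbers gives the same value with the opposite sign. The correlation therefore cannot show whether the numbers mark a shared batch. With the number as a replicate block, the share of aligned reads differed by 1.11 points and all 6 comparisons gave p = 0.5, the smallest the exact test allows. Crossing the numbers left the differences as they were, with an exact p = 1 for the share of aligned reads.

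With 2 libraries per site the smallest p of the exact test is 0.333, above the threshold of 0.05. The limit that a count of 0 allows, at most 0.000788% of reads, covers counting error only: the 29 bp TG pair of Site 9 had 271 reads in replicate 1 and 0 in replicate 2.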
